A study of Mus musculus with 4 samples.

Results

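Transporters of amino acids, glucose, monocarboxylates and transmitters were followed across 4 arrays of mouse cells. They were taken by a rule on gene symbols that uses no measured value. It takes the probe sets whose single annotated gene belongs to the solute carrier families Slc1, Slc2, Slc3, Slc6, Slc7, Slc16, Slc17, Slc32 or Slc38. The members were chosen with earlier results of these data known. The symbols found 91 of 35556 probe sets, which stand for 88 of the 19938 genes that have a probe set with 1 symbol. The gene counts are 18 for Slc6, 15 for Slc7, 13 for Slc16, 12 for Slc2, 11 for Slc38, 9 for Slc17, 7 for Slc1, 2 for Slc3 and 1 for Slc32.

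Solute carriers move small molecules across membranes, mostly by facilitated diffusion, by exchange, or by coupling to ion gradients. Slc2 proteins carry glucose and other hexoses, and Slc16 proteins carry lactate, pyruvate and other monocarboxylates. Amino acids enter through several systems, among them the Slc7 light chains that pair with the Slc3 heavy chains. In neural tissue, Slc1 and Slc6 members clear glutamate, GABA, glycine and monoamines from outside the cell, while Slc17 and Slc32 members load transmitter into synaptic vesicles.

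The arrays held RNA from bexarotene-treated, RA-treated and untreated embryoid bodies (EBs) at day 7 and from undifferentiated ES cells, with 1 array per condition. All came from 1 mouse ES cell line, and EBs, aggregates in which ES cells begin to differentiate, were kept for 2 days in hanging drops and then for 5 days in suspension. Bexarotene, an agonist of the retinoid X receptors, was given at 50 nM, and retinoic acid (RA), the ligand of the retinoic acid receptors, at 5 µM by the sample labels, whereas the article states a lower, nanomolar dose. The question was which genes each ligand changes in differentiating EBs.

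As no condition has a second array, no test could be run, and each difference given is that between 2 arrays on the log2 scale. A gene is counted as higher or lower past 1.5-fold, or 0.585 on the log2 scale. The median log2 signal was 6.66 to 6.69 on the 4 arrays. The spread between the 2 ligand arrays at similar signal, as a robust SD, lay between 0.0717 and 0.138 for the transporters, but it can also hold differences between the ligands and says nothing of the spread between cultures. Of the 88 genes, 40 (45.5%) lay below the array median on all 4 arrays, against 36.9% of all genes, so that many of these transporters were measured at low signal. As a check of the untreated EB and ES cell labels, untreated EBs had 7 of 8 pluripotency markers past 1.5-fold below ES cells and 7 of 8 visceral endoderm markers above them. EBs are mixed tissue, and fewer cells of a type cannot be told apart from less RNA per cell.

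Few transporters differed between treated and untreated EBs. With RA, Slc17a6, Slc1a3 and Slc6a5 were past 1.5-fold higher, and with bexarotene only Slc17a6 was. Slc16a4, Slc38a3 and Slc6a11 were past 1.5-fold lower in each of the ligand comparisons, which share the untreated array. In RA EBs, 3 of 88 transporters (3.41%) were higher, beside 2.11% of all genes, and 3 (3.41%) were lower, beside 2.29%. In bexarotene EBs, 1 of 88 (1.14%) was higher, beside 1.52% of all genes, and 3 (3.41%) were lower, beside 2.19%. The median difference over the 88 genes was 0.03 with RA and 0.01 with bexarotene, and over all genes 0 and -0.008. The median size of the difference, without its sign, was 0.161 for the transporters and 0.116 for all genes with RA, and 0.147 and 0.113 with bexarotene.

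**Figure D1:**
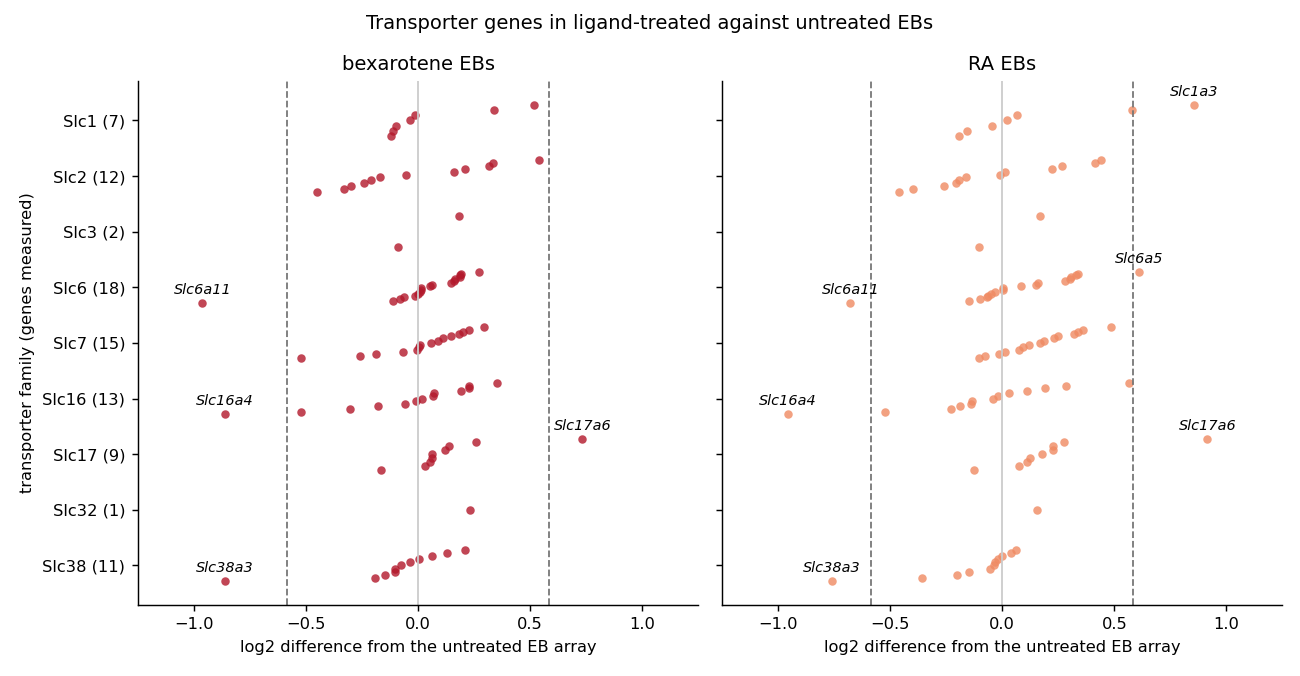
Log2 difference of 88 transporter genes from the untreated EB array, with bexarotene on the left and RA on the right. Each point is 1 gene placed by family, the number of genes is in parentheses and dashed lines mark 1.5-fold. Slc16a4, Slc38a3 and Slc6a11 lie left of the lines in both panels and Slc17a6 right of them, while most genes lie near 0.

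Among the vesicular carriers, Slc17a6 encodes the transporter that loads glutamate into the vesicles of many hindbrain, spinal cord and diencephalic neurons. Its log2 signal was 5.66 in bexarotene EBs, 5.84 in RA EBs, 4.92 in untreated EBs and 4.87 in ES cells. Both ligand arrays stood above the untreated and ES cell arrays, which were alike. The difference from untreated EBs was 0.73 with bexarotene (1.66-fold) and 0.91 with RA (1.89-fold), where the spread was 0.123. The signal stayed below the array median in every condition, and with a floor at the 25th percentile the differences were 0.47 and 0.65, so that only RA stayed past the threshold. The other vesicular glutamate carriers, Slc17a7 and Slc17a8, differed by 0.05 and 0.14 with bexarotene and by 0.23 and 0.08 with RA. Slc32a1, which loads GABA and glycine into vesicles, had log2 signals of 6.34 in bexarotene EBs, 6.27 in RA EBs, 6.11 in untreated EBs and 6.40 in ES cells. Its treated EB arrays thus stood no higher than ES cells.

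Of the carriers at the plasma membrane, Slc6a5 returns glycine to the endings of glycinergic neurons. It had log2 signals of 5.99 in bexarotene EBs, 6.44 in RA EBs, 5.83 in untreated EBs and 6.07 in ES cells. Only the RA array stood apart, 1.53-fold above untreated EBs, the member just inside the threshold. The signal lay below the array median in every condition, and the difference was below the threshold after quantile normalization (0.581) and after loess (0.563). With bexarotene the difference was 0.16, and the array with RA was also 0.45 above that with bexarotene. The other glycine transporter, Slc6a9, which is not restricted to neurons, differed by 0.27 with bexarotene and 0.31 with RA.

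Slc1a3 encodes a glutamate transporter of radial glia and astrocytes. Its log2 signal was 8.78 in bexarotene EBs, 9.12 in RA EBs, 8.27 in untreated EBs and 8.84 in ES cells. Untreated EBs were the lowest of the 4 conditions, and ES cells lay at about the level of bexarotene EBs. Relative to untreated EBs, Slc1a3 was 1.81-fold higher with RA and 1.43-fold higher with bexarotene. Slc1a2, the main glutamate transporter of astrocytes, lay just outside the threshold with RA, with log2 signals of 7.06 in bexarotene EBs, 7.30 in RA EBs, 6.73 in untreated EBs and 6.16 in ES cells. Its fold with RA was 1.49, and with bexarotene 1.26. Slc1a1, Slc1a6 and Slc1a7, the remaining glutamate transporters, had differences of -0.20 to 0.02 with RA and -0.12 to -0.10 with bexarotene.

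Markers of neural cells differed between the same arrays. Of 10 neuron markers, 7 were past 1.5-fold higher with bexarotene and 7 with RA, among them Dcx, a microtubule protein of migrating neurons. The mean log2 signal over the list was 8.31 in bexarotene EBs, 8.80 in RA EBs, 7.34 in untreated EBs and 7.28 in ES cells. Of 7 neural progenitor markers, 4 were higher with each ligand, and their mean was 10.5 in bexarotene EBs, 10.6 in RA EBs, 9.52 in untreated EBs and 8.48 in ES cells. None of 6 astrocyte and oligodendrocyte markers was past 1.5-fold with either ligand. In RA EBs 6 of 8 pluripotency markers were also past 1.5-fold higher than in untreated EBs, and in bexarotene EBs none was. Their median difference was 0.68 with RA and 0.36 with bexarotene. The mean log2 signal of these markers was 9.15 in bexarotene EBs, 9.44 in RA EBs, 8.86 in untreated EBs and 11.4 in ES cells. The part of these cell types in the transporter differences was not tested.

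**Figure D2:**
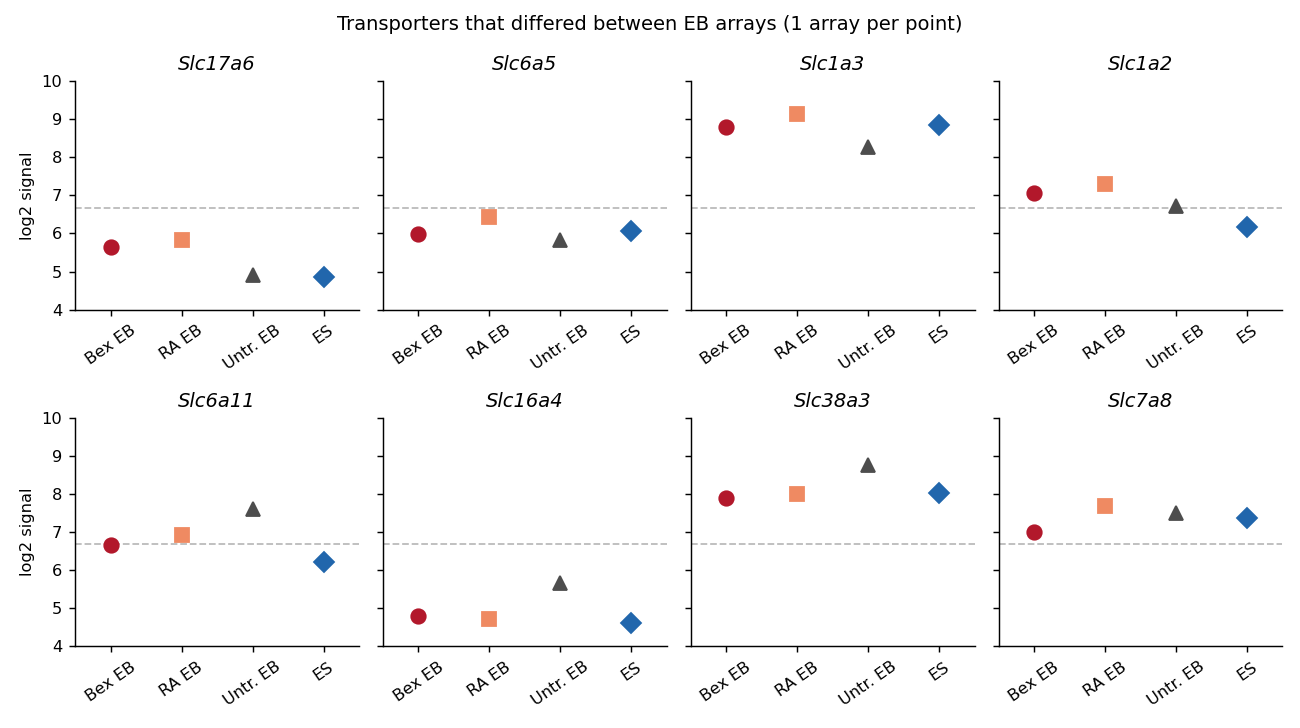
Log2 signal of 8 transporter genes in bexarotene-treated (Bex), RA-treated and untreated (Untr.) EBs and in ES cells, with 1 point per array and no replicates. The dashed line marks the mean of the 4 array medians. Slc17a6 stands at 5.66 and 5.84 in treated EBs and 4.92 in untreated EBs, whereas Slc38a3, Slc6a11 and Slc16a4 are highest in untreated EBs.

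The genes that were lower with the ligands belong to 3 families. Slc6a11 encodes a GABA transporter found mainly on glia. Its log2 signal was 6.65 in bexarotene EBs, 6.93 in RA EBs, 7.61 in untreated EBs and 6.21 in ES cells. The difference from untreated EBs was -0.96 with bexarotene and -0.68 with RA, and every EB array stood above ES cells. Slc38a3, a sodium-coupled glutamine transporter of liver, kidney and astrocytes, had log2 signals of 7.89 in bexarotene EBs, 7.99 in RA EBs, 8.75 in untreated EBs and 8.02 in ES cells. Relative to untreated EBs the signal was 1.82-fold lower with bexarotene and with RA 1.69-fold, and both treated arrays lay close to ES cells.

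Slc16a4, a member of the monocarboxylate transporter family, had log2 signals of 4.81 in bexarotene EBs, 4.71 in RA EBs, 5.67 in untreated EBs and 4.61 in ES cells. With bexarotene it was 1.82-fold below untreated EBs, with RA 1.94-fold, and only untreated EBs stood apart from ES cells. Its signal lay below the array median throughout, and with a floor at the 25th percentile the differences shrank to -0.45 and -0.47, inside the threshold. For these 3 genes the untreated array also enters the comparison with ES cells, on the opposite side, so that the 2 differences are not independent.

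Non-neural markers were lower in part with the ligands. Of 6 cardiomyocyte markers 3, of 5 endothelial markers 2, of 5 erythroid markers 2 and of 6 mesenchymal markers 2 were past 1.5-fold lower with each ligand. The mean log2 signal of the cardiomyocyte list was 6.97 in bexarotene EBs, 6.87 in RA EBs, 7.71 in untreated EBs and 6.86 in ES cells, and that of the mesenchymal list 7.51 in bexarotene EBs, 7.55 in RA EBs, 8.07 in untreated EBs and 6.69 in ES cells. Of 4 trophoblast markers, 3 were past 1.5-fold lower with RA and none with bexarotene, with a mean of 7.49 in bexarotene EBs, 7.25 in RA EBs, 7.76 in untreated EBs and 7.02 in ES cells. None of 8 visceral endoderm markers was past 1.5-fold with either ligand. The part of these cells in the lower transporters was not tested.

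The promoters of Slc17a6, Slc6a11 and Slc16a4 are shown because these genes, like Slc38a3, stood past the threshold with each ligand. No promoter sequence was available for Slc38a3, so it was not searched. Retinoid receptors bind repeats of the motif AGGTCA. Each sequence gives the 250 bases before the annotated start, in the direction of transcription, from RefSeq on GRCm38.p6. All lie on the plus strand, at chr7:51621580-51621829 for the more upstream of 2 starts of Slc17a6, chr6:114130991-114131240 for Slc6a11 and chr3:107290980-107291229 for Slc16a4. Capitals mark AGGTCA on either strand.
Slc17a6: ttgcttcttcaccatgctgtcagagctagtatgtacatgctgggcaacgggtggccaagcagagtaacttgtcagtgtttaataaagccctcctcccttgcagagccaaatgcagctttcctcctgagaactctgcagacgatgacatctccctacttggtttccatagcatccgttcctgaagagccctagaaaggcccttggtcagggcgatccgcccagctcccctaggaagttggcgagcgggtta
Slc6a11: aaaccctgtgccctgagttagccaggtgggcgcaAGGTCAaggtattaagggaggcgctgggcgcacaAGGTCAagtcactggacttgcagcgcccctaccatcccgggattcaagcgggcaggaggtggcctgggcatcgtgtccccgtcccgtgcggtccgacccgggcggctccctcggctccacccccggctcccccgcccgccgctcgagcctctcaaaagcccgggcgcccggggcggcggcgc
Slc16a4: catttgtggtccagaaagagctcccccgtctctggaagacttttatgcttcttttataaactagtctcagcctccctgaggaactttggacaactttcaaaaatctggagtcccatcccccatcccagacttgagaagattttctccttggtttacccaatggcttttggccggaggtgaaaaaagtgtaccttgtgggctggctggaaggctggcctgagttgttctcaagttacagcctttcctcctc

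The window of Slc6a11 held the motif 2 times in the same direction, beginning 216 and 182 bases before the start and separated by 28 bases. The windows of Slc17a6 and Slc16a4 held none. AGGTCA was found in 12 of 88 windows of the transporters that the table lists (13.6%, 65 genes) and in 4607 of all 32851 windows (14%). A pair of motifs in the same direction, separated by 1, 2 or 5 bases, was found in 0 of the transporter windows. Over all windows the shares were 0.0335%, 0.00913% and 0.00913%. Only the exact letters AGGTCA were searched, and windows with 2 motifs at any spacing were not counted. How common the arrangement in Slc6a11 is over all windows is thus not known. Other spacings were not searched, and the spacing bound by retinoid X receptors differs with their partner. The windows also differed in CG dinucleotides, with 7 for Slc17a6, 25 for Slc6a11 and 2 for Slc16a4, and a median of 7 over the transporters and 6 over all windows. Matches of letters are a description and not binding sites.

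Between the ligands, whose doses differ, only Slc7a8 was past 1.5-fold. It encodes a light chain that pairs with Slc3a2 and exchanges neutral amino acids. Its log2 signal was 6.99 in bexarotene EBs, 7.70 in RA EBs, 7.51 in untreated EBs and 7.37 in ES cells. The bexarotene array was the lowest of the 4, 1.63-fold below RA, where the spread was 0.129. Thus 0 of 88 transporters were higher with bexarotene than with RA, beside 0.206% of all genes, and 1 (1.14%) was lower, beside 0.301%. The next in size were Slc7a3, a carrier of arginine and lysine, at -0.51, and Slc7a7, a light chain that exports them, at -0.48. The largest difference toward bexarotene was 0.36, for the neutral amino acid transporter Slc38a4, with log2 signals of 11.0 in bexarotene EBs, 10.7 in RA EBs, 10.8 in untreated EBs and 11.2 in ES cells.

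More transporters differed between untreated EBs and ES cells. In untreated EBs, 14 of 88 transporters (15.9%) were past 1.5-fold lower than in ES cells, beside 8.62% of all genes, and 9 (10.2%) were higher, beside 11.2%. The median difference was -0.09 over the transporters and -0.04 over all genes. Over all 4 arrays the range of signal exceeded 1.5-fold for 31 transporters (35.2%) and for 25.7% of all genes, and over the 3 EB arrays for 7 (7.95%) and 5.16%.

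Of the 15 genes of Slc7, 4 were past 1.5-fold lower and 1 higher, and of the 7 of Slc1, 2 were lower and none higher. Slc7a3 had log2 signals of 8.64 in bexarotene EBs, 9.15 in RA EBs, 8.90 in untreated EBs and 11.3 in ES cells, and its signal in untreated EBs was 5.15-fold below ES cells. Slc7a1, the widely expressed carrier of the same cationic amino acids, was 2.41-fold lower, with 9.17 in bexarotene EBs, 9.24 in RA EBs, 8.88 in untreated EBs and 10.2 in ES cells. ES cells were thus the highest of the 4 conditions for both genes. Slc1a5, which takes up glutamine and other neutral amino acids, had log2 signals of 8.13 in bexarotene EBs, 8.24 in RA EBs, 8.17 in untreated EBs and 10.2 in ES cells. The 3 EB arrays lay within 0.10 of each other, and untreated EBs stood 4.01-fold below ES cells.

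Slc7a5, the light chain of the leucine and aromatic amino acid exchanger, had log2 signals of 10.9 in bexarotene EBs, 11.0 in RA EBs, 10.9 in untreated EBs and 12.0 in ES cells and was 2.13-fold lower in untreated EBs. Slc7a7 had a difference of -1.58, with 9.42 in bexarotene EBs, 9.90 in RA EBs, 9.42 in untreated EBs and 11.0 in ES cells. For Slc7a7 the RA array lay between the other EBs and ES cells. Slc3a2, the heavy chain that both of them need at the plasma membrane, was 1.44-fold lower, inside the threshold, with 11.8 in bexarotene EBs, 11.8 in RA EBs, 11.6 in untreated EBs and 12.2 in ES cells. Slc1a1, a carrier of glutamate and cysteine, was 4.27-fold lower, with log2 signals of 5.84 in bexarotene EBs, 5.77 in RA EBs, 5.96 in untreated EBs and 8.06 in ES cells. It lay above the array median in ES cells and below it in all 3 EB arrays.

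The other genes that were lower in untreated EBs have varied substrates. Slc17a9, which loads nucleotides into vesicles, was 2.62-fold lower, the creatine transporter Slc6a8 2.18-fold, the fructose transporter Slc2a5 1.83-fold and the orphan carrier Slc16a14 1.73-fold. Slc17a9 had log2 signals of 6.97 in bexarotene EBs, 7.25 in RA EBs, 7.13 in untreated EBs and 8.52 in ES cells. Slc6a8 had log2 signals of 10.1 in bexarotene EBs, 10.2 in RA EBs, 9.89 in untreated EBs and 11.0 in ES cells. For these genes all EB arrays stood past 1.5-fold below ES cells, whereas Slc16a14 did so only without ligand, with 6.73 in bexarotene EBs, 6.95 in RA EBs, 6.38 in untreated EBs and 7.17 in ES cells. Slc2a5 had log2 signals of 5.93 in bexarotene EBs, 6.10 in RA EBs, 6.26 in untreated EBs and 7.14 in ES cells, above the array median only in ES cells. Slc2a7, Slc6a9, Slc6a16 and Slc17a7 completed the 14, between 1.52-fold and 1.68-fold lower, and Slc17a7 was the member just inside the threshold while Slc1a3 was just outside it, at 1.49-fold. After loess, Slc6a16 and Slc17a7 were no longer past it. Slc2a7 and Slc6a16 lay below the array median on all 4 arrays, and the filter on the median signal took them out of the lower genes.

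**Figure D3:**
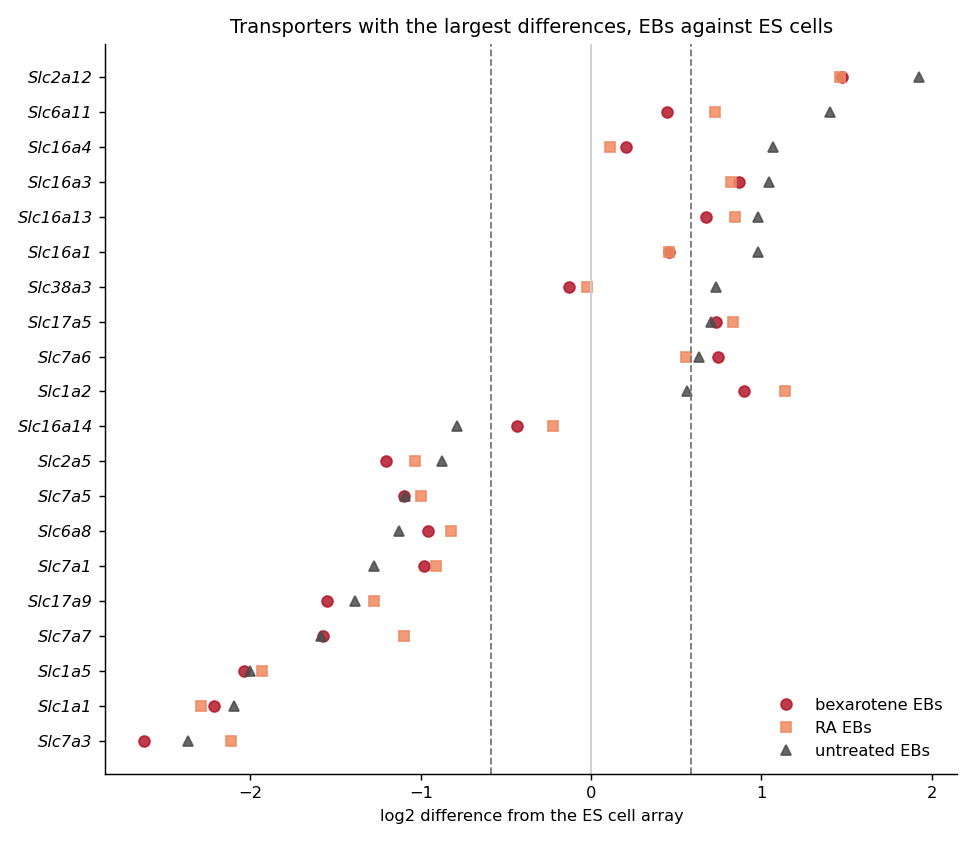
Log2 difference from the ES cell array for the 10 transporters highest and the 10 lowest in untreated EBs relative to ES cells, in bexarotene-treated, RA-treated and untreated EBs. Each marker is 1 array, dashed lines mark 1.5-fold and genes are sorted by untreated EBs. Slc7a3, Slc1a1 and Slc1a5 lie between -2.62 and -1.93 on the 3 EB arrays, and Slc2a12 lies highest, at 1.92 in untreated EBs.

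Genes of the amino acid response, the transcriptional program that Atf4 drives when amino acids are short and that includes several amino acid carriers, were also lower in EBs. Against ES cells, untreated EBs had 12 of the 14 listed genes past 1.5-fold lower and none higher, and the median was -0.96. Atf4 had log2 signals of 7.99 in bexarotene EBs, 7.89 in RA EBs, 7.99 in untreated EBs and 8.71 in ES cells. Asns, which makes asparagine, had 11.4 in bexarotene EBs, 11.5 in RA EBs, 11.4 in untreated EBs and 12.2 in ES cells. For both genes the EB arrays were alike and ES cells stood apart. Cth, an enzyme of cysteine synthesis, had the largest difference at -2.63, followed by Nupr1 at -2.11 and the glutathione-degrading enzyme Chac1 at -1.93. Between bexarotene-treated and untreated EBs only Cth of this list was past 1.5-fold, at -0.61, and with RA none was. Slc7a11, the cystine exchanger that Atf4 is known to induce, was not past the threshold, with 5.12 in bexarotene EBs, 5.29 in RA EBs, 5.30 in untreated EBs and 5.56 in ES cells, all below the array median. The part of this program in the transporter differences was not tested.

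**Figure D4:**
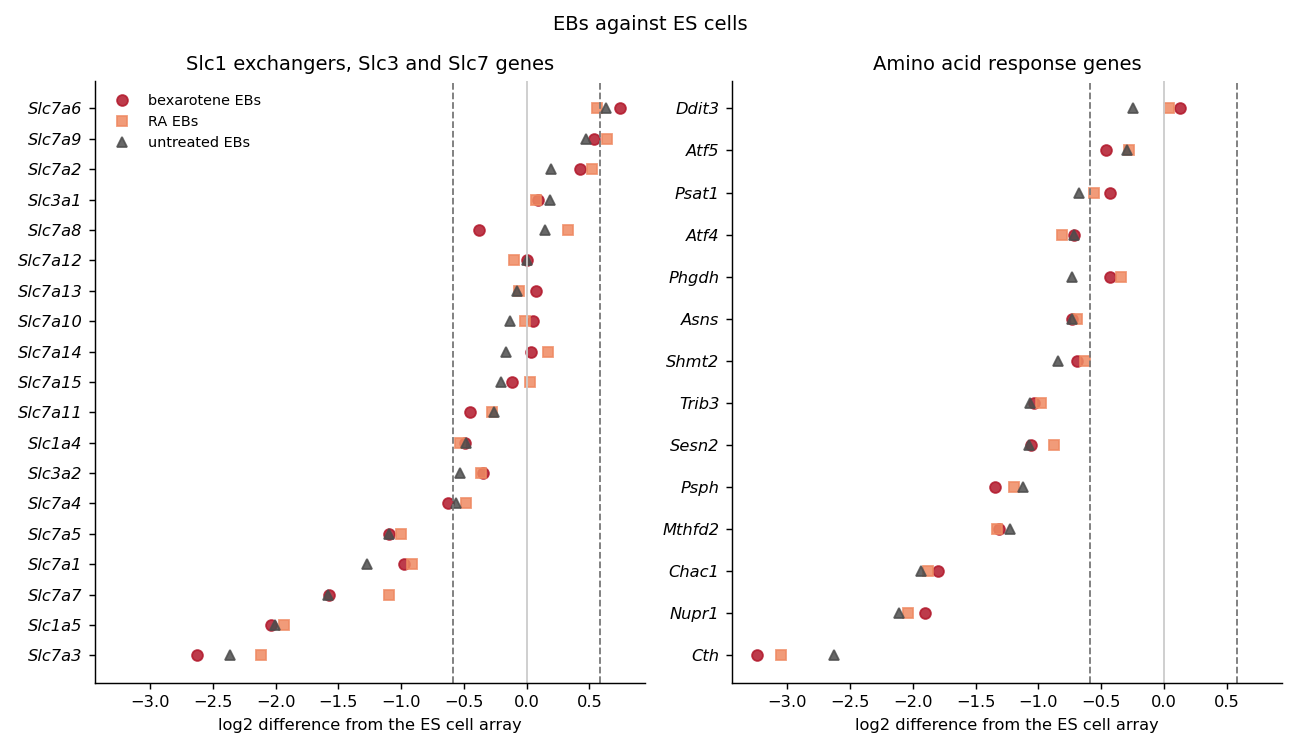
Log2 difference from the ES cell array for the neutral exchangers of Slc1, heavy chains of Slc3 and genes of Slc7 (left) and for 14 amino acid response genes (right), in bexarotene-treated, RA-treated and untreated EBs. Each marker is 1 array and dashed lines mark 1.5-fold. Slc7a3, Slc1a5, Slc7a7, Slc7a1 and Slc7a5 lie left of the line on all 3 EB arrays, as do Cth, Nupr1 and Chac1.

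Of the higher genes, 4 of 9 belong to the monocarboxylate family. Among the 13 genes of Slc16, 4 were higher and 1 lower, beside 11.2% and 8.62% of all genes. The median difference over these 13 genes was 0.07. Slc16a1, which moves lactate and pyruvate with protons, had log2 signals of 11.1 in bexarotene EBs, 11.1 in RA EBs, 11.7 in untreated EBs and 10.7 in ES cells. It was 1.97-fold higher in untreated EBs than in ES cells, and in both treated EB arrays it was 1.44-fold below untreated EBs, just outside the threshold. Slc16a3, the lactate exporter of glycolytic cells, was 2.07-fold higher, with 10.7 in bexarotene EBs, 10.7 in RA EBs, 10.9 in untreated EBs and 9.87 in ES cells. All EB arrays of Slc16a3 stood above ES cells. Slc16a13 was 1.97-fold higher, with 8.73 in bexarotene EBs, 8.90 in RA EBs, 9.03 in untreated EBs and 8.05 in ES cells. Slc16a4 was 2.09-fold higher, but it lay below the array median on all 4 arrays. With a floor at the 25th percentile its log2 difference from ES cells was 0.485, inside the threshold.

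Chaperones carry the lactate transporters to the plasma membrane. Of these, Emb was past 1.5-fold higher in untreated EBs than on the ES cell array, with log2 signals of 11.1 in bexarotene EBs, 11.0 in RA EBs, 11.7 in untreated EBs and 10.6 in ES cells, and Bsg differed by 0.39. Like Slc16a1, Emb was highest without ligand, at -0.65 with RA and -0.55 with bexarotene. Of the 17 measured genes of glycolysis, lactate and these chaperones, 4 were past 1.5-fold higher and 3 lower in untreated EBs against ES cells, and the median was 0.14. With RA only Emb was past 1.5-fold, and with bexarotene none was.

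The most widely used glucose carriers were not past the threshold in any comparison. Slc2a1, the basal glucose transporter of most cells, had log2 signals of 12.5 in bexarotene EBs, 12.6 in RA EBs, 12.8 in untreated EBs and 12.4 in ES cells. Slc2a3, a high-affinity transporter of neurons and early embryos, had 12.2 in bexarotene EBs, 12.2 in RA EBs, 12.4 in untreated EBs and 12.2 in ES cells. Both lay near the upper end of the array's scale. Slc2a12 had the largest difference toward EBs of all 88 genes, 3.79-fold, with 7.61 in bexarotene EBs, 7.60 in RA EBs, 8.06 in untreated EBs and 6.14 in ES cells. Slc2a4, the insulin-responsive transporter of muscle and fat, lay just outside the threshold with bexarotene at 1.46-fold, with 7.67 in bexarotene EBs, 7.57 in RA EBs, 7.13 in untreated EBs and 7.11 in ES cells. Both treated arrays of Slc2a4 stood above the other conditions.

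Slc6a11 (2.65-fold), Slc38a3 (1.66-fold), Slc17a5 and Slc7a6 completed the genes that were higher in untreated EBs. Slc17a5, which exports sialic acid from lysosomes, was 1.63-fold higher, with 10.5 in bexarotene EBs, 10.6 in RA EBs, 10.5 in untreated EBs and 9.79 in ES cells. Slc7a6, a light chain that exchanges cationic for neutral amino acids, was 1.55-fold higher, with 11.2 in bexarotene EBs, 11.0 in RA EBs, 11.0 in untreated EBs and 10.4 in ES cells. It was the member just inside the threshold and Slc1a2, at 0.56 on the log2 scale, the one just outside it. For Slc17a5 and Slc7a6 all 3 EB arrays stood above ES cells.

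Of the 11 sodium-coupled neutral amino acid carriers of Slc38, Slc38a3 was the only one past the threshold with the ligands, and the other 10 genes lay between -0.36 and 0.06 with RA and between -0.19 and 0.21 with bexarotene. Slc38a2, which is induced in many cells when amino acids are short, differed by -0.08 between untreated EBs and ES cells. The probe sets of the 3 genes with 2 each (Slc16a9, Slc38a1 and Slc38a9) differed by no more than 0.44 from 0 in any comparison, and none was past the threshold. The plasma membrane monoamine carriers Slc6a2, Slc6a3 and Slc6a4 showed no difference past the threshold, with -0.15 to 0.33 with RA and -0.08 to 0.19 with bexarotene. All 3 had signals near or below the array median.

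Genes that make, store or break down transmitters were followed beside their carriers. Of 12 genes for monoamines and acetylcholine, 3 were higher and 2 lower with each ligand. The vesicular monoamine carrier Slc18a2 had log2 signals of 7.75 in bexarotene EBs, 8.02 in RA EBs, 6.99 in untreated EBs and 5.87 in ES cells, and the vesicular acetylcholine carrier Slc18a3 had 7.52 in bexarotene EBs, 7.59 in RA EBs, 6.62 in untreated EBs and 7.32 in ES cells. Both were higher in treated than in untreated EBs, but Slc18a3 in ES cells lay near the treated EBs. Ddc, an enzyme of monoamine synthesis, was also higher, and Tph1, which starts serotonin synthesis outside the brain, and the degrading enzyme Maob were lower. Of 8 measured genes of GABA and glutamate metabolism, only Abat, which breaks down GABA, was past 1.5-fold with RA (0.63), and none was with bexarotene. Among 11 other amino acid transporters, Slc36a4 and Slc25a12 were past 1.5-fold higher with RA and Slc25a12 with bexarotene. Slc25a12, the aspartate and glutamate carrier of mitochondria, had 9.20 in bexarotene EBs, 9.36 in RA EBs, 8.43 in untreated EBs and 10.6 in ES cells. Untreated EBs were the lowest of the 4 conditions for this gene.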

How the data were processed

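Total RNA was hybridised to Affymetrix whole-transcript arrays, 1 per condition. The deposited log2 signals were made by the authors in Affymetrix Expression Console, with background correction, normalization over the 4 arrays and summarization to probe sets. The article names RMA and the submitters' processing notes name GC-RMA. These methods treat low signals differently, which can alter differences of dim genes. No column was left out. In the platform annotation 21789 probe sets have 1 gene symbol, 1621 have several and 12146 lack one, and all 91 transporter probe sets carry the current symbol.

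Differences were computed with Python 3.11.15, pandas 2.3.3 and numpy 2.4.6. A gene was counted where at least 1 probe set was past 1.5-fold, the threshold of the study, with no probe set past it in the opposite direction. Its values are those of the probe set with the highest mean. The spread was the scaled median absolute deviation of the difference between the ligands in 20 bins of signal. The code was tested on simulated data. Alternatives were a 2-fold threshold, quantile normalization, loess with a span of 0.3 (statsmodels 0.14.6), a floor at the 25th percentile, a filter on the median signal, and the highest or mean probe set per gene.

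The genes given with all 4 signals are those past 1.5-fold among EBs and the 10 largest each way between untreated EBs and ES cells. Others were picked from the families and lists to complete a role, after their values were seen. The members and lists were chosen with earlier results of these data known. The array precision is limited by having 1 array per condition.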

Additional observations from a re-analysis of the deposited data

How the results depend on the processing

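Of 56 recounts under 7 alternatives, 45 lay within 1.5 times the count given. This share overstates the stability, as some recounts could not move. Only 3 members have several probe sets, none past the threshold, so the highest or mean probe set per gene had to return the same counts. Recounts of 0 beside a count of 0 are also among the 45. At 2-fold, 0 transporters were higher and 0 lower with RA, beside 0.667% and 0.808% of all genes, 0 and 0 with bexarotene, beside 0.517% and 0.838%, and 0 were lower with bexarotene than with RA, beside 0%, while against ES cells 4 were higher and 8 lower in untreated EBs, beside 5.89% and 3.53% of all genes. Without probe sets below the median of both arrays, 1 transporter, Slc1a3, was higher with RA (beside 2.89% of all genes) and 0 with bexarotene (beside 2.12%). With bexarotene the count of higher genes was 0 with a floor at the 25th percentile (beside 1.43%) and 2 after quantile normalization (beside 1.65%), which added Slc1a3. After quantile normalization and after loess Slc6a5 was no longer past the threshold with RA, which left 2 higher transporters each time. Against ES cells, quantile normalization added Slc1a3 and Slc7a4 to the lower genes. Loess took Slc6a16 and Slc17a7 out of the lower genes and added Slc1a2 and Slc2a10 to the higher genes. The floor and the filter on the median signal each took Slc16a4 out of the higher genes. This left 8 higher genes each time, beside 11% of all genes with the floor and 16.7% with the filter. The single differences moved by less than the spread for all 31 values after quantile normalization and after loess, and for 26 of 31 with the floor, and none changed sign. The other 5 are those of Slc16a4 and Slc17a6, whose low signals the floor replaces. No replicate could be left out, and the spread between cultures is unknown.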
